A study of Mus musculus with 12 samples.

Results

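The replication-dependent core histone genes were described in the urogenital sinus (UGS) of mouse embryos. They were taken as every gene of the expression table whose symbol is H2ac, H2bc, H3c or H4c followed by a number. This gave 59 of 56495 genes: 18 for H2A, 17 for H2B, 12 for H3 and 12 for H4. RNA was sequenced from UGS at stage E18.5, shortly before birth; the tissue was cut free of the bladder, and the proximal urethra stayed on it, as did the vagina of females. There were 12 libraries, 3 from each sex of wild type embryos and 3 from each sex of embryos labelled Inv(Itga6-nsi)d11lac (the mutant). That name joins an inversion, Inv, between Itga6 and nsi with the allele d11lac, and the labels name no treatment. The comparisons ask how the mutant differs from wild type in each sex, and how the sexes differ in each genotype. Nothing in the labels says that replicate libraries are separate embryos, and p-values measure only how far these libraries spread, which may be technical.

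Histones H2A, H2B, H3 and H4 form the protein core around which DNA is wound in the nucleosome. Cells make most of this protein while they copy their DNA, from clustered genes that are switched on in S phase through NPAT. The mRNAs of these genes end in a short stem-loop in place of a poly(A) tail, and the stem-loop is bound by SLBP, which guides the processing, translation and decay of the mRNA. The libraries were made from total RNA after removal of ribosomal RNA, a method that does not need a poly(A) tail. In a developing organ such as the UGS, where epithelial buds and mesenchyme still grow, these mRNAs come mainly from dividing cells. In bulk tissue, fewer cells of a type and less RNA per cell cannot be told apart.

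All 59 genes lay in 3 regions of the mm39 genome. The first region, chr13:21899933-22227846, held 23 of them, the second, chr13:23715220-24118834, held 26, and the third, chr3:96127181-96177448, held 10. Of the 59, 54 had a single exon in every transcript of the GENCODE M21 annotation. A copy of the stem-loop stood in an M21 transcript of 39 genes, in 8 different 16-base forms. Genes without a match include some with short M21 transcripts, such as H2ac13 at 393 bases and H3c10 and H3c11 at 411. Such transcripts can lack the end of the mRNA, so a missing match does not show that the mRNA lacks a stem-loop. Other M21 transcripts run far past the stem-loop, by 2010 bases in H2ac6, 1861 in H2bc6, 1257 in H4c14 and 1214 in H2bc9. Both the short and the long transcripts, through their length and GC content, enter the GC and length correction used below. The commonest form was shared by 21 genes of the H2A, H2B and H3 types and by no H4 gene, another was shared by 5 H2B and H3 genes, and the commonest H4 form was shared by 6 H4 genes. The following stem-loops, 5′ to 3′ with their flanks and with the 16 bases in capitals, show these 3 forms and another found in H4c11 and H4c2; they were read from the GRCm38 transcripts.
H2ac8: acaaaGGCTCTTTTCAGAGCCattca
H3c6: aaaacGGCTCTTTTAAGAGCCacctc
H4c8: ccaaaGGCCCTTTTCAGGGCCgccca
H4c11: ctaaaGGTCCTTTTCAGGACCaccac

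Many of these genes are near-identical copies, which bears on every level given below. Among the 49 genes tested, the share of a transcript's 50-base windows that also occurs in another gene ran from 0% to 93.9%, with a median of 49.7%. How reads that fit several copies were counted is not given in the sources used here. Of the 10 genes not tested, 5 were listed at 0 in every library (H2ac19, H2ac23, H2ac24, H2bc23 and H2bc24), and between 88.5% and 100% of their windows were shared. An exact 0 can be a failed estimate, and 4 tested genes, H2ac12, H2ac13, H3c10 and H4c17, share at least as large a part of their windows as the lowest of those 5. The other 5 untested genes were under the filter on low values of at least 1 FPKM in at least 3 libraries. H2ac14, H2ac18, H3c14 and H3c15 did not pass 0.646 in any library, with 63.5% to 100% of their windows shared. H2ac1, a testis-type H2A gene, did not pass 0.21 and was above 0 in 3 libraries, with 2.3% of its windows shared.

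Levels are FPKM, fragments for each kilobase of gene, set against the mapped fragments of the library, divided by a library factor from the median ratio over 11897 genes, and are called scaled FPKM. Libraries were not of equal depth, as estimated from the ratios of very low FPKM values between libraries. Relative to wild type female 1, depth was 0.81 to 1 in wild type and 0.582 to 0.717 in mutant libraries. Every mutant library was thus shallower than every wild type library, so depth and genotype cannot be told apart. The 7SK RNA gene Rn7sk was listed at 0 in 9 libraries and took 12.2% to 14.9% of the FPKM sum in wild type male 1 and mutant males 1 and 3. Summed red cell markers were 700 and 961 in wild type males 1 and 2, against 2750 to 12600 in the other 10 libraries. Markers of epithelium and mesenchyme, which the UGS should hold, had no member at 0 throughout a group. The epithelial sum was 472 to 659 in wild type females, 619 to 1280 in mutant females, 473 to 580 in males of the wild type and 483 to 787 in those of the mutant, a mutant to wild type ratio of 1.56 in females and 1.14 in males. Of its 9 markers, 3 were higher in the mutant over both sexes by limma (18.9% of all genes), among them Krt5 at a log2 change of 1.54 and Cdh1 at 0.93. None was lower by limma, and 7 of the 9 changes lay above 0, with a median of 0.34 and a lowest value of -0.38. Mutant female 1 stood apart from the other libraries with the highest epithelial sum, 1280, the lowest mesenchymal sum, 2170 against 2770 to 4440, and the lowest endothelial sum, 50.1 against 82.6 to 107; the part of this tissue makeup in the histone levels was not tested. Neural markers summed to 25.7 in mutant female 3 and to 118 to 267 elsewhere, and skeletal muscle markers to 949 to 1300 in wild type males and 555 to 902 in the other groups.

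The core histone genes were abundant in every library. Their summed scaled FPKM was 7750, 7450 and 7740 in wild type females 1 to 3 and 4580, 4840 and 7270 in wild type males 1 to 3. It was 8150, 11900 and 11500 in mutant females and 6320, 7340 and 7100 in mutant males. Every mutant female stood above every wild type female, whereas wild type male 3 lay within the range of the mutant males. Group means were 7650 ± 168 and 10500 ± 2050 in wild type and mutant females and 5560 ± 1480 and 6920 ± 536 in wild type and mutant males (SD, n = 3). The ratio of mutant to wild type was thus 1.37 in females and 1.24 in males, and no test was made of a sum over these genes.

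The spread within groups ran through nearly all of the genes together. Wild type males 1 and 2 each ranked among the 2 lowest of 12 libraries for 41 of 49 genes, and wild type male 3 was the highest of its group for 47. Mutant female 1 was the lowest of its group for 47 genes, while mutant females 2 and 3 were among the 2 highest libraries for 44 and 45. The 2 wild type males with the low histone sums are also those with the low red cell sums. In mutant females the library with the lowest histone sum, mutant female 1, had the highest red cell sum, 12100, against 5670 and 2750 in mutant females 2 and 3. The part of red cells in the histone levels was not tested.

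**Figure D1:**
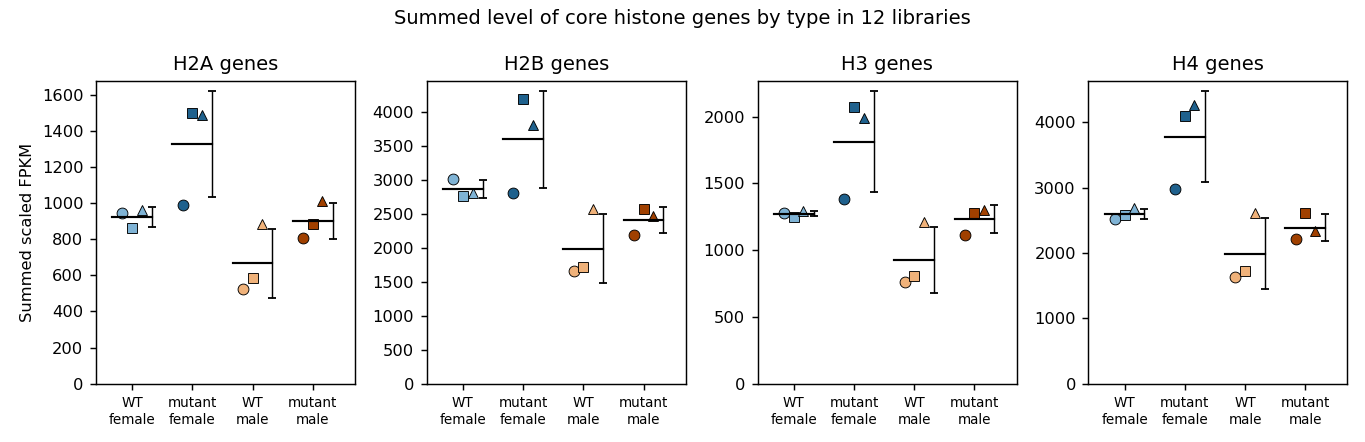
Summed scaled FPKM of the H2A, H2B, H3 and H4 genes (y axes, starting at 0) in the 4 groups. Circles, squares and triangles are libraries 1, 2 and 3 of a group, horizontal lines are means and bars are SDs (n = 3); wild type males 1 and 2 are the lowest libraries and mutant females 2 and 3 the highest for each type.

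The balance of the 4 types varied little, with small differences between the genotypes. H2A genes made up 11.5% to 14.2% of the sum in the 12 libraries, H2B genes 32.9% to 38.8%, H3 genes 16.5% to 18.4% and H4 genes 32.6% to 36.9%. The H3 share was 16.5% to 16.8% in wild type and 17% to 18.4% in mutant libraries. The H2B share was lower in the mutant, at 32.9% to 35.3% against 36.2% to 38.8% in females. In males it was 34.7% to 35% against 35.3% to 36.3%. The H2A and H4 shares of the genotypes overlapped or met in both sexes, and no share was tested. Between mutant and wild type females, the sums differed by a ratio of 1.44 for H2A, 1.26 for H2B, 1.43 for H3 and 1.46 for H4. In males the ratios were 1.35, 1.21, 1.32 and 1.2. By region, the ratio in females was 1.5 in the first region of chromosome 13, 1.36 in the second and 1.2 on chromosome 3, and in males 1.35, 1.26 and 1.01. The sums of all types moved in the same direction in both sexes, and the sum of the chromosome 3 genes was close to level in males.

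A few genes of each type supplied much of the RNA. The highest mean over 12 libraries was 250 scaled FPKM for the H2A gene H2ac15, 643 for the H2B gene H2bc18, 235 for the H3 gene H3c6 and 589 for the H4 gene H4c8. The lowest tested means were 7.03 for H2A, 0.512 for H2B, 24.2 for H3 and 9.98 for H4. H2bc18 stood at 743, 723 and 643 in wild type females, 519, 472 and 639 in wild type males, 720, 865 and 787 in mutant females and 480, 595 and 533 in mutant males. The genotypes overlapped in both sexes, with a log2 change over both sexes of 0.08 (SE 0.10; limma, Benjamini-Hochberg adjusted p = 0.546) that was -0.11 after correction for GC content and transcript length (adjusted p = 0.431), and H2bc18 overlaps the gene Gm42743. H4c8 stood at 577, 625 and 623 in wild type females, 395, 409 and 610 in wild type males, 628, 822 and 871 in mutant females and 477, 552 and 472 in mutant males. The females did not overlap, by a narrow margin, and the males did; the log2 change over both sexes was 0.22 (SE 0.12; limma adjusted p = 0.167). H3c6, an H3.2 gene, stood at 226, 223 and 219 in wild type females, 141, 148 and 207 in wild type males, 262, 376 and 384 in mutant females and 196, 224 and 218 in mutant males. Its mutant females all lay above the wild type females and its males overlapped, with a log2 change over both sexes of 0.49 (SE 0.12; limma adjusted p = 0.00681).

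In males, 5 of the 49 tested genes were higher in the mutant and 1 was lower. The higher genes were H3c10 (log2 change 1.87), H2ac13 (1.25), H2ac8 (0.96), H3c1 (0.72) and H3c3 (0.56), all H2A or H3 genes, and the lower gene was H2bc1. Over all 13904 genes tested, 8.64% were higher, 11.6% were lower and 20.3% changed in either direction, so the share of histone genes that were higher was near the background. The median log2 change of the 49 genes was 0.38, against 0 over all genes, and 43 of the 49 lay above 0. The tests are limma's moderated tests on log2(scaled FPKM + 0.5) with Benjamini-Hochberg adjusted p under 0.05 over all genes tested, a scale that understates the change of low genes. The count depended on single libraries: the total of 6 became 28 without wild type male 3, 12 without mutant female 1, 2 if wild type male 1 was left out, and 3 if wild type male 2, mutant male 2 or mutant male 3 was. The share of all genes called in such refits is not given here or below. After correction of each library for GC content and transcript length, 2 were higher and 1 lower (background 1.75% and 1.88%), with a median of 0.30.

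In females, 20 of the 49 genes were higher in the mutant and none was lower, against a background of 12.1% higher and 15.9% lower (28% in all). They were 6 H2A, 4 H2B, 4 H3 and 6 H4 genes, with log2 changes from 0.44 to 1.94, and the median of the 49 was 0.44. The libraries of the genotypes did not overlap for 26 genes, all with the mutant higher, where 20.4% of all genes tested did so; with the mutant lower there were 0 genes, where 22.2% of all genes did so. The total of 20 fell to 7, 10 and 8 without wild type females 1, 2 and 3 and to 10 and 8 without mutant females 2 and 3. After the GC and length correction 6 genes were higher and 0 lower (background 4.24% and 3.53%), with a median of 0.17, and 13 of the 49 changes, none of them called before, had turned sign; those 6 were H2ac13, H3c10, H2bc22, H2bc6, H2bc9 and H3c7.

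Over both sexes, 25 of the 49 genes were higher and 1 was lower, against 18.9% and 21.6% of all genes (40.6% in all). The higher genes comprised 7 of 12 H2A genes (H2ac13, H2ac8, H2ac15, H2ac12, H2ac7, H2ac21 and H2ac10), 5 of 15 H2B genes (H2bc22, H2bc6, H2bc8, H2bc7 and H2bc9), 7 of 10 H3 genes (H3c10, H3c3, H3c1, H3c11, H3c6, H3c8 and H3c7) and 6 of 12 H4 genes (H4c12, H4c1, H4c6, H4c11, H4c2 and H4c14). Median log2 changes were 0.38 for H2A, 0.34 for H2B, 0.47 for H3 and 0.42 for H4. By region, 8 of 18 tested genes were higher in the first region of chromosome 13 (median 0.51), 15 of 25 in the second (median 0.38) and 2 of 6 on chromosome 3 (median 0.24). After the GC and length correction these were 4 of 18 (median 0.17), 7 of 25 (0.36) and 0 of 6 (-0.06), so the order of the first 2 regions turned. All 4 H3.1 genes and 3 of the 6 tested H3.2 genes were higher, with medians of 0.55 and 0.36. After the correction these were 1 of 4 and 3 of 6, with medians of 0.24 and 0.40 in the reverse order. Both reversals rest on the M21 transcripts, of which some are short and some run far past the stem-loop. After the GC and length correction 11 genes were higher and 1 lower (background 8.91% and 8.48%) and the median fell from 0.39 to 0.19, with medians of 0.12 for H2A, 0.13 for H2B, 0.34 for H3 and 0.31 for H4; 7 of the 49 genes had changes of the opposite sign, among them the called gene H2ac10. With the FPKM as deposited the total of 26 was 9 (8 higher and 1 lower) and the median 0.26. Of all 13904 genes, 552 were then higher and 2872 lower, with a median of -0.11.

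The effect of the mutant did not pass a test of difference between the sexes for any histone gene. By limma 0 of 49 genes were called, against a background of 0%. The smallest p was that of H2bc22, an H2B gene at 25.6, 31.9 and 19.1 scaled FPKM in wild type females, 24.6, 27.6 and 27.2 in wild type males, 58.6, 59.8 and 74.9 in mutant females and 23.2, 43.9 and 19.4 in mutant males. All 3 mutant females were high, while the mutant males spanned the wild type range and beyond. The log2 change was 1.34 (SE 0.26; limma adjusted p = 0.00401) in females and 0.03 (SE 0.26; adjusted p = 0.948) in males, and the difference, -1.31 (SE 0.37), had a limma adjusted p of 0.545.

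**Figure D2:**
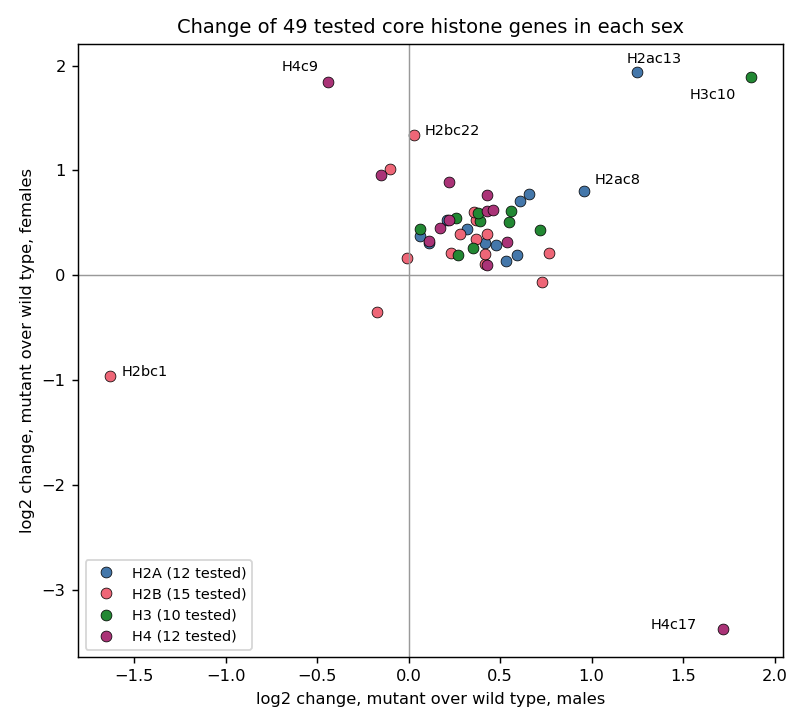
Fitted log2 change from wild type to mutant in males (x axis) and females (y axis) of the 49 tested genes, each a point coloured by histone type; grey lines mark 0. Most points lie in the upper right corner region, with H3c10 and H2ac13 farthest out, H2bc1 in the lower left and H4c17 at the lower right.

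Over both sexes, H3c10 and H2ac13 had the largest changes among the 49 genes. H3c10 encodes H3.1; it stood at 11.2, 11.5 and 11 scaled FPKM in wild type females, 7.23, 7.44 and 12.1 in wild type males, 35.2, 49.4 and 45.5 in mutant females and 27.6, 36.6 and 36.1 in mutant males. Every mutant library was above every wild type library of either sex. The log2 change was 1.89 (SE 0.19) in females and 1.87 (SE 0.19) in males, with limma adjusted p of 0.000353 and 0.00113, which are folds of 3.7 and 3.67. H2ac13, an H2A gene, stood at 12.4, 11.8 and 10.6 in wild type females, 7.49, 7.64 and 13.3 in wild type males, 35.6, 51.3 and 52.9 in mutant females and 21.4, 23 and 23 in mutant males. Again no mutant library fell within the wild type range. Its log2 change was 1.94 (SE 0.20) in females and 1.25 (SE 0.20) in males, with limma adjusted p of 0.000358 and 0.00363. With the GC and length correction, both genes were still called, with log2 changes over both sexes of 1.48 for H3c10 and 1.18 for H2ac13.

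The genes H2ac13 (chr13:21900592-21900984, mm39) and H3c10 (chr13:21901829-21902239) are neighbours, 844 bases apart. Both belong to the genes with the most shared sequence: 93.9% of the 50-base windows of H3c10 and 90.1% of those of H2ac13 occur in another gene, and these copies cannot be told apart within such windows. H3c11, another H3.1 gene, holds 79.3% of the windows of H3c10 but was higher and changed less. It stood at 93.5, 86.6 and 89.6 in wild type females, 52.2, 55.1 and 87.1 in wild type males, 91.6, 154 and 149 in mutant females and 82.3, 97.2 and 98.5 in mutant males. The log2 change of H3c11 over both sexes was 0.53 (SE 0.15; limma adjusted p = 0.0166), against 1.88 (SE 0.13; adjusted p = 0.000034) for H3c10; after the correction that of H3c11 was 0.13 and no longer called (adjusted p = 0.536), with -0.02 in females. As a share of the H3c11 mean, the H3c10 mean was 12.5% in wild type females, 13.8% in wild type males, 33.1% in mutant females and 36% in mutant males. H3c11 was added to the genes named after its values were seen.

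The 250 bases before the start sites of these 3 genes are shown because H2ac13 and H3c10 moved together while the near-identical H3c11 did so less. They are RefSeq sequences of GRCm38.p6, 5′ to 3′ on the gene's strand, at chr13:21716162-21716411 (plus strand) for H2ac13, chr13:21717378-21717627 (plus strand) for H3c10 and chr13:21783398-21783647 (minus strand) for H3c11. Capitals mark CCAAT (the letters of the CCAAT box), TATAAA (of the TATA box) and ATTTGCAT (of the octamer), searched on both strands.
H2ac13: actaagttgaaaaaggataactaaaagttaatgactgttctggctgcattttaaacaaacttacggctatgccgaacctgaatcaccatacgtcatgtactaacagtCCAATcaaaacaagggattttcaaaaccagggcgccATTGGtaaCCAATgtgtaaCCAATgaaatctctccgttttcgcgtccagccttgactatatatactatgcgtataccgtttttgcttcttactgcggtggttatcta
H3c10: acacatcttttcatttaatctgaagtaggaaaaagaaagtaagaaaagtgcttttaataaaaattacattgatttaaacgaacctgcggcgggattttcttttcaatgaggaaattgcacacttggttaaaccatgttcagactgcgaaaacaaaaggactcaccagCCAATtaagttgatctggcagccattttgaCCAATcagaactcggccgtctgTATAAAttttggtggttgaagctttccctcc
H3c11: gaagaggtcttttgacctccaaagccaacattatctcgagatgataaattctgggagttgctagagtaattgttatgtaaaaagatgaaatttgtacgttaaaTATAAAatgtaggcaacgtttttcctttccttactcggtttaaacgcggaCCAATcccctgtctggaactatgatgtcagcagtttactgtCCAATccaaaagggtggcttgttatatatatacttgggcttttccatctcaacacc
H2ac13 holds 4 copies of CCAAT and no TATAAA in these 250 bases, and H3c10 and H3c11 each hold 2 copies of CCAAT and 1 of TATAAA. The letters searched are thus the same in number in H3c10 and H3c11, but at different places. TATAAA stands close to the start site in H3c10 and much farther from it in H3c11.

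Over the family, RefSeq promoters of 300 bases, 250 before to 50 after the start, were matched for 52 genes with 53 entries. CCAAT stood in 84.9% of them, against 37.4% of 32851 promoters of the same length, in every H2A, H2B and H3 promoter and in 27.3% of H4 promoters. TATAAA stood in 56.6% against 13.6% of all promoters. ATTTGCAT stood in 24.5% against 1.74%, in 35.3% of H2A and 46.7% of H2B promoters and in no H3 or H4 promoter. The ends of CCAAT and ATTTGCAT can share letters where they meet, and a match is a description of the sequence and not of a bound factor.

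**Figure D3:**
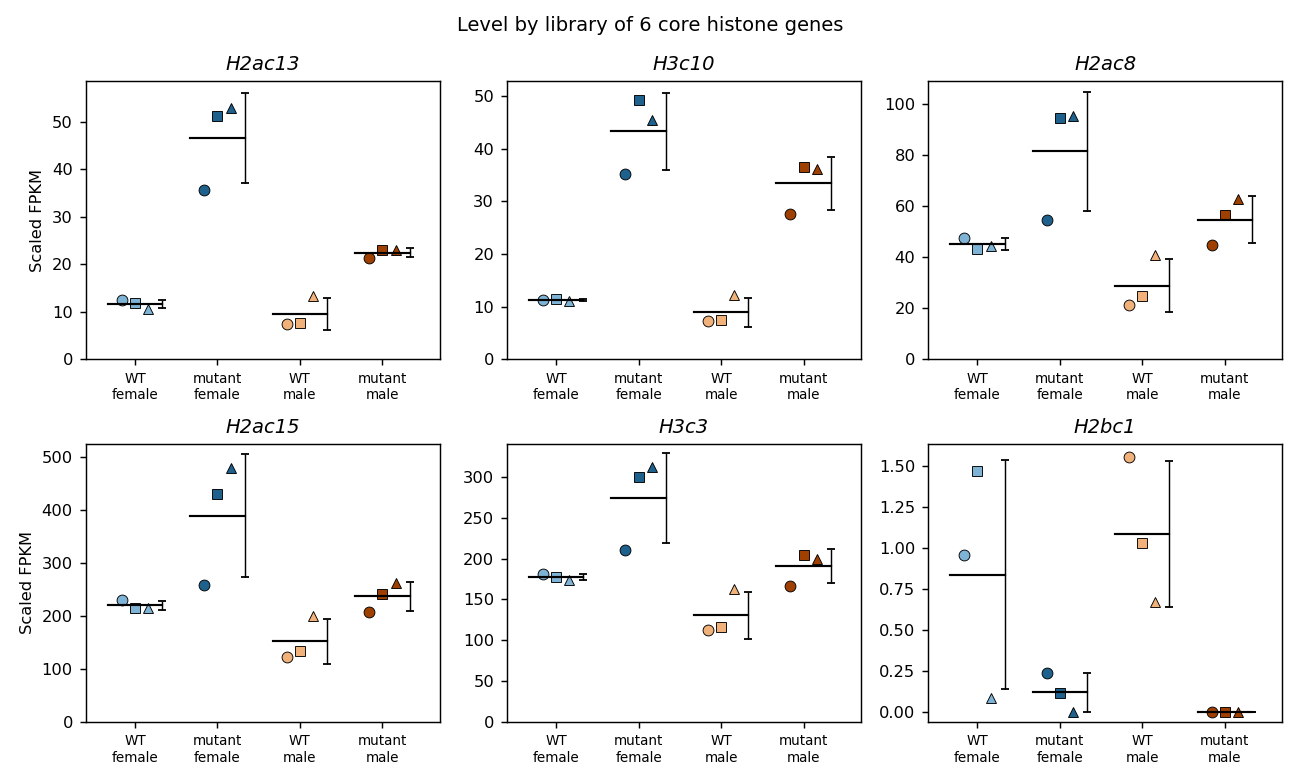
Scaled FPKM (linear y axes) of 6 core histone genes in the 4 groups, with circles, squares and triangles for libraries 1, 2 and 3, lines for means and bars for SDs (n = 3). In each sex the mutant libraries of H2ac13, H3c10, H2ac8, H2ac15 and H3c3 lie above the wild type libraries of that sex, and the mutant males of H2bc1 are at 0.

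Besides H3c10 and H2ac13, the genotypes did not overlap in either sex for H2ac8, H2ac15 and H3c3, which makes 5 genes of 49, where 10.6% of all genes tested were as high in the mutant in both sexes. The same 5 genes had males that did not overlap with the mutant higher (background 21.1%). H2ac8, an H2A gene, stood at 47.6, 43 and 44.3 scaled FPKM in wild type females, 21, 24.6 and 40.7 in wild type males, 54.5, 94.5 and 95 in mutant females and 44.7, 56.6 and 62.5 in mutant males. Wild type male 3 came close to the lowest mutant male. Its log2 change over both sexes was 0.88 (SE 0.18; limma adjusted p = 0.00269), with 0.80 in females (SE 0.25; adjusted p = 0.0352) and 0.96 in males (SE 0.25; adjusted p = 0.0232). H2ac15, the highest H2A gene, stood at 230, 215 and 214 in wild type females, 122, 134 and 200 in wild type males, 258, 431 and 479 in mutant females and 208, 241 and 262 in mutant males. The gap in males was that between 200 and 208, and the male change of 0.66 (SE 0.23) did not pass (limma adjusted p = 0.061), whereas the female change of 0.78 (SE 0.23) did (adjusted p = 0.026). H3c3, an H3.2 gene, stood at 181, 178 and 174 in wild type females, 112, 116 and 163 in wild type males, 211, 300 and 312 in mutant females and 167, 205 and 200 in mutant males. Its wild type females were nearly level, and the change over both sexes was 0.58 (SE 0.12; limma adjusted p = 0.00279). Under that correction the combined changes were 0.79 for H2ac8 and 0.43 for H3c3, both called, and 0.31 for H2ac15, which was not (limma adjusted p = 0.137). Within the sexes H2ac8 was then not called, with 0.65 for females (limma adjusted p = 0.147) and, for males, 0.93 (adjusted p = 0.0726). H3c3 also lost its calls in both sexes, with 0.38 for females (limma adjusted p = 0.204) and 0.49 for males (adjusted p = 0.142). The corrected female change of H2ac15 was 0.24 and no longer called (limma adjusted p = 0.477).

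H2bc1, known as a testis-type H2B gene, went the other way at levels near the lower limit of the table. It stood at 0.961, 1.47 and 0.0863 scaled FPKM in wild type females, 1.56, 1.03 and 0.674 in wild type males and 0.238, 0.118 and 0 in mutant females, and it was listed at 0 in all 3 mutant males. The males did not overlap, 1 gene of 49 where 22.4% of all genes were as low in the mutant, and the females overlapped through wild type female 3. The fitted log2 change was -1.63 in males (SE 0.38; limma adjusted p = 0.0147) and -0.96 in females (SE 0.38; adjusted p = 0.0835), and these sizes depend on the pseudocount. H2bc1 passed the filter on low values only through wild type libraries, so its call supports nothing further, and in males the call was lost when either wild type male 1 or mutant male 1 was left out. Its neighbour H2ac1, the testis-type H2A gene, was above 0 in 3 wild type libraries and listed at 0 in the 6 mutant libraries.

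Male libraries tended to be lower than female ones in both genotypes. In wild type, 44 of 49 genes had lower fitted means in males, with a median log2 difference of -0.47 against 0.01 over all genes. By limma, however, 0 genes were called (background 3.18%, of which 1.95% higher and 1.23% lower). The smallest p was that of H2bc11, an H2B gene at 226, 159 and 210 scaled FPKM in wild type females, 58.6, 68.2 and 148 in wild type males, 138, 287 and 170 in mutant females and 147, 103 and 181 in mutant males. Its wild type males were all below the wild type females, and its mutant groups overlapped. The male minus female log2 difference of H2bc11 was -1.22 in wild type (SE 0.36; limma adjusted p = 0.0992) and -0.43 in mutant (SE 0.36; adjusted p = 0.491). Without wild type male 3, 25 genes were called between the sexes in wild type, and the share of all genes called in that refit is not given. The GC and length correction left 0 called (background 1.91% higher and 1.41% lower).

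In the mutant, 12 genes were lower in males and none higher, against 3.52% and 3.98% of all genes tested (7.49% in all), and 47 of 49 lay below 0 with a median of -0.58. With libraries set to equal sums, which moved the median difference of all genes to 0.31, 6 were lower and 1 higher, with a median of -0.26. The 12 were H2bc18, H2ac22, H2bc6, H2ac10, H3c6, H4c4, H3c7, H4c12, H3c13, H4c1, H2ac13 and H2bc22. The genes with the smallest p were H2ac13 (-1.02), H2bc22 (-1.23), H2ac10 (-0.61) and H3c7 (-0.72), with limma adjusted p of 0.0136, 0.0192, 0.0195 and 0.0196. H2ac10, an H2A gene, had 101, 110 and 115 scaled FPKM in the mutant females and 61.9, 68.2 and 83.8 in mutant males, against 75.7, 76.7 and 71.6 in wild type females and 53.5, 57.1 and 74 in wild type males. H3c7, an H3.2 gene, stood at 157, 208 and 201 in mutant females and 98.8, 123 and 119 in mutant males, against 129, 128 and 125 in wild type females and 80, 86.8 and 120 in wild type males. For both genes the mutant females were above all other libraries. The total of 12 rested on single libraries: it was 29 without mutant female 1, 21 without wild type male 3, 6 without wild type female 1 or 2, 5 without mutant female 2, 4 without mutant female 3 or mutant male 3, and 1 without mutant male 1. After the GC and length correction 4 genes were lower and none higher (background 3.31% and 2.81%), and the log2 difference of H2ac10 was -0.20.

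**Figure D4:**
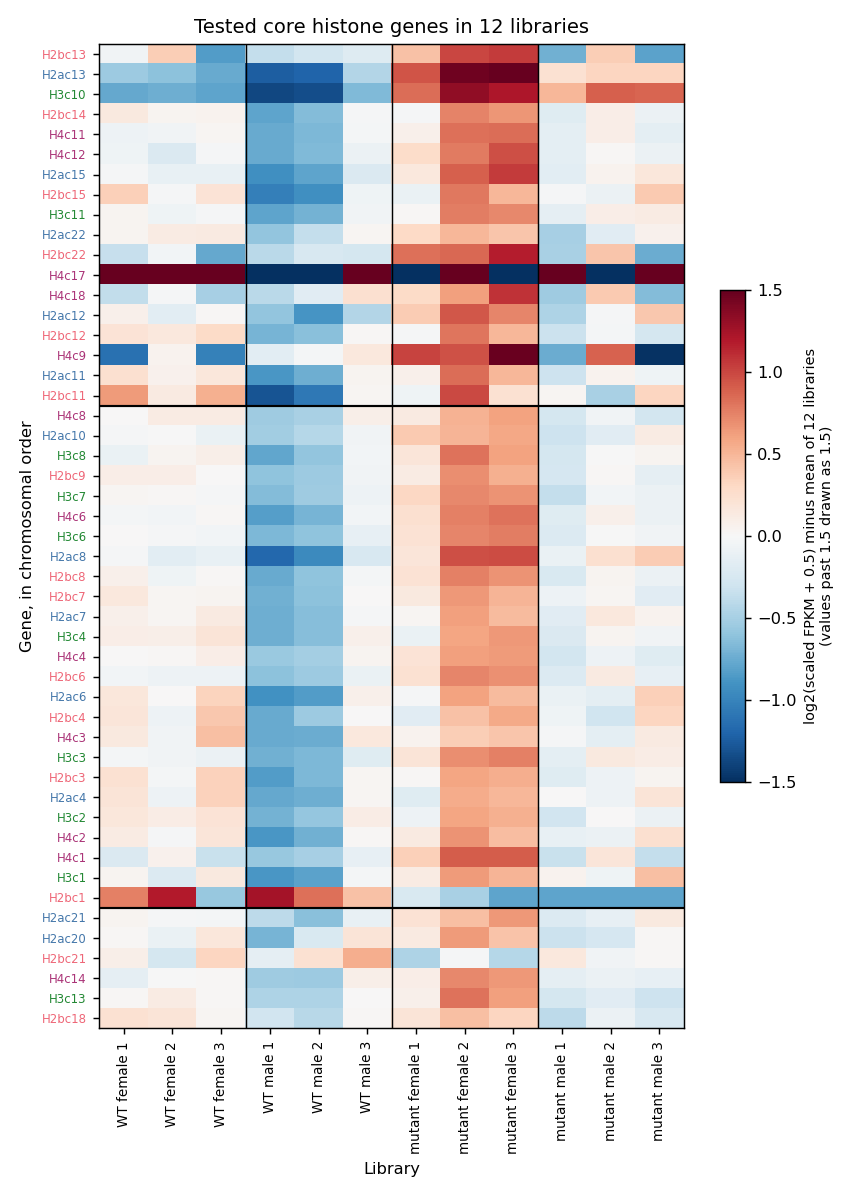
log2(scaled FPKM + 0.5) of the 49 tested genes (rows, in chromosomal order, names coloured by type as H2A blue, H2B red, H3 green, H4 purple; lines part the 3 regions) minus the mean of 12 libraries (columns), from blue (lower) to red (higher). Wild type males 1 and 2 are blue and mutant females 2 and 3 red for nearly all genes, with exceptions such as H2bc1, H2bc21 and H4c17.

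Some genes did not follow the family pattern, and those in this paragraph were chosen after their values were seen. H4c17 stood at 23.2, 11.4 and 25.4 scaled FPKM in wild type females, 0.0678, 0 and 11.7 in wild type males, 0.114, 16.7 and 0.118 in mutant females and 12.2, 0 and 18.9 in mutant males. Libraries of 1 group thus differed from near 0 to over 10, and 89.8% of the windows of this gene are shared, most of them with H4c18. H4c9 stood at 25.1, 57.1 and 27.1 in wild type females, 49.3, 54 and 61.3 in wild type males, 112, 107 and 155 in mutant females and 32.7, 102 and 19.4 in mutant males. Its mutant females were all high and its mutant males scattered, with log2 changes of 1.84 in females (SE 0.49; limma adjusted p = 0.0174) and -0.44 in males (SE 0.49; adjusted p = 0.565). H2bc22 and H2bc13 were likewise low in mutant males 1 and 3, with H2bc13 at 101 and 95.3 there and 215 in mutant male 2. Mutant males 1 and 3 are 2 of the 3 libraries with Rn7sk above 0. In the third, wild type male 1, H2bc22 was at 24.6 and H2bc13 at 130, against 27.6 and 137 in wild type male 2. H4c9 was also low in wild type females 1 and 3, where Rn7sk was listed at 0. The part of Rn7sk in these values was not tested.

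H2A and H2B genes often lie head to head on opposite strands. There were 13 such pairs, 175 to 305 bases apart, and both genes were tested in 9. The log2 change over both sexes was higher for the H2A gene in 8 of the 9 pairs, and in 7 after the GC and length correction. The pair of H2ac13 and H2bc13 differed most, with changes of 1.59 and 0.45, and the H2ac13 mean was 7.44% of that of H2bc13 in wild type females, 6.93% in wild type males, 15.5% in mutant females and 16.4% in mutant males. In the pair of H2ac8 and H2bc8 the changes were 0.88 and 0.45, and in that of H2ac7 and H2bc7 they were 0.38 and 0.36. The exception to this order was H2ac22 and H2bc22, at 0.21 and 0.69, or -0.20 and 0.63 after the correction. H2ac11 and H2bc11 were at 0.37 (SE 0.16) and 0.34 (SE 0.25), and after the correction at 0.03 and 0.06, a second exception. Some margins were thus small beside the SEs. Whether reads of paired genes were told apart by strand is not given in the sources used here, no test of the difference within pairs was made, and the pairs named were chosen after their values were seen. H2bc6 also overlaps H1f4, and H4c2 overlaps another annotated gene.

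The linker histone genes of the same clusters, whose H1 proteins bind the DNA between nucleosomes, were higher in the mutant over both sexes for 4 of 5 (H1f3, H1f2, H1f5 and H1f4; background 18.9%), with a median log2 change of 0.36. With the GC and length correction, and likewise with the FPKM as deposited, 1 of the 5 was higher, with medians of 0.32 and 0.23. H1f3 stood at 54.8, 52.3 and 56.3 scaled FPKM in wild type females, 32, 34.4 and 51.3 in wild type males, 67, 89.7 and 92.3 in mutant females and 48.7, 58.5 and 54 in mutant males. Its order of libraries was like that of the core genes, with wild type males 1 and 2 lowest and mutant females 2 and 3 highest, and its change over both sexes was 0.53 (SE 0.12; limma adjusted p = 0.00466). Of 13 other histone genes, listed as variants, 5 were higher and none lower (median 0.18), and 7 were higher after the correction. That list held H2ax, H2aw and H2bu2, so it is not a set wholly independent of S phase. H1f10, a linker variant, changed by 0.90 (SE 0.09; limma adjusted p = 0.000068), H2ax, whose protein marks broken DNA, by 0.52 (SE 0.06; adjusted p = 0.000156), and H2aj by 0.51 (SE 0.09; adjusted p = 0.00101). Corrected changes were 0.91 for H1f3, 0.56 for H1f10, 0.25 for H2ax and 0.40 for H2aj, each still called.

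Genes that act on the histone genes and their mRNAs had calls in both directions. Of 18 tested factors of histone gene transcription and mRNA processing, 3 were higher and 6 lower over both sexes, with a median of -0.08, beside 18.9% higher and 21.6% lower of all genes. Corrected for GC content and length the counts were 2 and 2, and with the FPKM as deposited 0 and 5, which moved the median of all genes to -0.11. Slbp, the stem-loop binder, stood at 18.7, 19.1 and 19.9 scaled FPKM in wild type females, 19.7, 18.2 and 19.8 in wild type males, 17.9, 22.3 and 20.5 in mutant females and 18.3, 20.2 and 18.9 in mutant males. The genotypes overlapped in both sexes for Slbp, with changes of 0.07 in females (limma adjusted p = 0.572) and -0.01 in males (adjusted p = 0.949); over both sexes it was 0.03 (SE 0.06; adjusted p = 0.721), and 0.26 and called after the GC and length correction (adjusted p = 0.0194). Npat, the activator of the histone clusters, had a combined change of -0.51 (SE 0.06; limma adjusted p = 0.000139), and of -0.14 after the GC and length correction, where it was not called (adjusted p = 0.0877). Casp8ap2, a partner of Npat at these genes, changed by -0.62 (SE 0.05; limma adjusted p = 0.000037) and by -0.30 after the correction (adjusted p = 0.00424), and Eri1, an exonuclease that trims histone mRNA, by -0.43 (SE 0.06; adjusted p = 0.000358) and -0.19 after it (adjusted p = 0.0522). Of 18 histone chaperone genes, 3 were higher and 6 lower (median -0.07), and 3 and 1 after the correction. Hat1 was at -0.60 (-0.32 corrected, still called), Asf1a at -0.43 but 0.12 corrected (limma adjusted p = 0.33), and Daxx at 0.29 but 0.09 corrected (adjusted p = 0.241).

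Other genes of S phase and mitosis likewise had calls in both directions. Of 42 DNA replication genes, 9 were higher and 11 lower over both sexes, with a median of -0.02, and of 20 mitosis genes 2 were higher and 10 lower, with a median of -0.13; of all genes 18.9% were higher and 21.6% lower. After the correction the counts were 4 and 1 for replication and 2 and 4 for mitosis, and with the FPKM as deposited 0 and 8, and 1 and 7. Among the replication genes Ccne2, the cyclin E2 gene, changed by -1.10 (SE 0.12, limma adjusted p = 0.000095). Rfc4, a clamp loader subunit, changed by -0.44 (SE 0.07, limma adjusted p = 0.000453). Uhrf1, which takes part in the copying of DNA methylation, changed by 0.47 (SE 0.08, limma adjusted p = 0.00075). Corrected values were -0.45 for Ccne2 and 0.33 for Uhrf1, both called, and -0.10 for Rfc4, which was not (limma adjusted p = 0.281). Among the mitosis genes Bub1 changed by -0.70, Nusap1 by -0.44 and Plk1 by 0.46, and by -0.32, -0.10 and 0.29 after the correction, where Nusap1 was not called (limma adjusted p = 0.206). The histone sum over the geometric mean of the 42 replication genes, a ratio that library scaling does not move, was 595, 585 and 655 in wild type females, 419, 438 and 631 in wild type males, 739, 997 and 992 in mutant females and 573, 624 and 613 in mutant males. The female genotypes did not overlap in this ratio, and wild type male 3 was above all mutant males. Among 6 tested RNAs without a poly(A) tail other than histone mRNAs, 1 was higher over both sexes, the telomerase RNA gene Terc at 0.94 (SE 0.15; limma adjusted p = 0.000805), with a median of 0.61. Only 3 of the 6 could be corrected for GC content and length, with 0 higher and a median of 0.08. With the FPKM as deposited 1 of the 6 was higher, with a median of 0.5. The 6 include Rn7sk, which was listed at 0 in most libraries. Among 482 other coding genes with transcripts of up to 1000 bases, 101 were higher and 70 lower, with a median of 0.06, and 45 and 46 after the correction, with a median of 0.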

How the data were processed

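The deposited table holds FPKM values, per the file headers, of 56495 genes in 12 libraries; it has 0 columns of other samples. Cufflinks 2.2.1, STAR 2.7.10a, bedtools 2.30.0, cutadapt 4.1 and the builds mm10 and mm39 are named without a role in the submitters' processing notes. The annotation, strand setting and handling of reads with several matches are not given in the sources used here. Table positions, which share their end with GENCODE M21 (GRCm38) for 2.74% of genes, are given as mm39, with starts raised by 1. FPKM carry no read counts, so only relative depth could be estimated and no counting interval is given.

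Libraries were scaled by median ratios over 11897 genes that reached 1 FPKM throughout. Genes that reached 1 FPKM in 3 or more libraries (13904, of which 49 core histone genes) were fitted as log2(scaled FPKM + 0.5) with limma 3.58.1 in R 4.3.3, using a mean for each of 4 groups, limma's trend and two-sided tests. A gene is called at a Benjamini-Hochberg adjusted p under 0.05 over all genes tested. The fit was tested on simulated data. The GC and length correction fitted splines with 5 degrees of freedom to each library over the 98.8% of tested genes with M21 values. The core histone genes and the H1f genes were left out of that fit, and the other histone variants stayed in it. Stem-loops and shared windows of 50 bases came from M21 transcripts, and promoters from RefSeq GRCm38.p6.

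The genes with values in every library were, for each type, that with the highest mean, the 3 largest changes among called genes that did not overlap in either sex, genes called against the majority, and up to 4 by p for the sex comparisons; from the other lists (linker histones, variants, pre-mRNA factors, chaperones, replication, mitosis and other RNAs without a poly(A) tail) the 3 smallest p and Slbp. The remaining named genes are described as chosen after their values were seen, or by being called. Members, lists and rules were chosen with earlier results of these data known. The 25 alternatives include filters, pseudocounts, scalings, a replicate block, left-out libraries and the correction.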

Additional observations from a re-analysis of the deposited data

How the results depend on the processing

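Counts here are core histone genes called by limma in either direction: 6 in males, 20 in females, 26 for the sexes combined, 0 for the difference between sexes, 0 between sexes in wild type and 12 in the mutant. Leaving out 1 library at a time gave 2 to 28, 7 to 27, 19 to 39, 0, 0 to 25 and 1 to 29. The share of all genes called is not given for these refits, so the counts show only how far the calls rest on single libraries. With no filter on low values there were 3 in males, 7 in females and 3 between mutant sexes. The FPKM as deposited gave 5 in females, 9 over both sexes and 3 between mutant sexes. Equal library sums without Rn7sk, which shift the median of all genes by -0.21 in females and 0.31 between mutant sexes, gave 7 and 7. Fits of only the groups compared gave 1 between wild type sexes and 1 between mutant sexes. The GC and length correction gave 3, 6 and 12 for the mutant effect in males, females and both, and 4 between mutant sexes. Under that correction the log2 change of H2ac10 was 0 in females and -0.04 over both sexes, and 0 and -0.04 again with the replicate block added. Chosen after seeing the data, leaving out the 3 libraries with Rn7sk left mutant male 2 as the only library of its group. The log2 change of H2ac13 in males was then 1.15, and no counts are given for this refit. Chosen likewise, counting only genes with under 50% shared windows gave 4, 11 and 14 for the mutant effect in males, females and both and 5 between mutant sexes, out of fewer genes. Replicate numbers did not pair the samples, with correlations of same-numbered deviations from -0.23 to 0.32. The replicate block gave 7, 24, 30, 0 and 0, and 19 between mutant sexes; block and correction together gave 9 in females and 5 between mutant sexes. Among values of the 13 genes given in every library by rule, 1671 stayed on their side of the threshold, some uncalled ones with the sign turned, 138 lost their call, 24 gained one, and the 4 called values that turned sign were those of H2ac10. The cause of these changes was not tested, beyond the smaller numbers of libraries or genes. Relative depth limits the low genes most: H2bc1, H2bc21 and the genes under the filter.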
